A study of Mus musculus with 16 samples.

Results

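Solute carriers are the membrane proteins that move amino acids, sugars, metals, ions, vitamins and metabolites across the plasma membrane and the membranes of organelles. They were followed here in regulatory T cells (Tregs) and conventional CD4 T cells (Tconv) of mice with either of 2 Foxp3 genotypes. Every gene on the array whose symbol begins with Slc and a number was considered, apart from the glucose and lactate carriers Slc2a1, Slc2a3, Slc16a1 and Slc16a3. Of the 324 such genes, 132 were kept because their log2 value exceeded 5 on at least 4 of the 16 arrays. They stand among 8139 genes that passed the same filter, out of 17097 genes on the array. The filter reads levels and not the difference between groups, but a gene that is near background in 3 groups enters only through the group in which it is high. The symbol rule also took in a pair of genes that are not carriers, Slc9a3r1, which encodes a scaffold protein, and the pseudogene Slc2a4rg-ps.

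Solute carriers work by exchange, by cotransport with sodium or protons, or by facilitated diffusion, and each family is named for its sequence rather than its substrate. Activated T cells need amino acid carriers for protein synthesis and for mTORC1 signalling, and the Slc25 family connects the cytosol with the mitochondrial matrix. Slc30 proteins move zinc out of the cytosol and Slc39 proteins move it in, while many Slc35 proteins bring nucleotide sugars into the endoplasmic reticulum and Golgi for glycosylation. Substrates given here are those known for the protein or its family, and transport itself was not measured.

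Cells came from spleens of 6-week-old mice on the NOD/LtJ background, a strain prone to autoimmune diabetes, and received no treatment. The animals labelled WT carry Tg(Foxp3-EGFP/cre)1aJbs, a transgene that expresses EGFP and Cre under Foxp3 control beside the endogenous gene. The animals labelled KI carry the allele Foxp3tm2Ayr, which the sample descriptions call Foxp3gfp, at Foxp3 itself. Both genotypes therefore carry a GFP reporter tied to Foxp3. WT Treg, WT Tconv, KI Treg and KI Tconv samples were each hybridised to 4 arrays. Whether a group's arrays represent different mice is not given, so the p-values measure only the spread between these samples. The stated sort was for GFP-negative CD3+CD4+ cells in all samples, including those labelled Treg, and how Tregs were separated is unclear. Values are log2 expression levels that the authors normalised with RMA. A difference of 1 is a 2-fold change, and differences that reach below about 5 understate the fold because that range is near background.

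The Treg markers matched the cell type labels, but some markers of other cells also differed between the cell types. Foxp3 lay between 9.39 and 10.16 on the 8 Treg arrays and between 3.57 and 4.96 on the 8 Tconv arrays. Averaged over the 4 Treg markers Foxp3, Il2ra, Ctla4 and Ikzf2, WT Treg arrays ranged from 10.49 to 10.67 and WT Tconv arrays from 5.85 to 6.10. In Tconv, Foxp3 (-0.93, limma adjusted p = 0.0104) and Ikzf2 (-0.83, limma adjusted p = 5.80e-06) were lower in KI than in WT samples, without overlap. Il2ra and Ctla4 did not pass there. Between KI and WT Tregs, Ctla4 alone of the 4 passed (0.64, limma adjusted p = 0.0358). Ikzf2 alone passed in the interaction (0.75, limma adjusted p = 0.00139). T cell markers were high in all groups, at 9.34 to 9.76 on average over 3 genes. Markers of dendritic cells and platelets exceeded 5 on none of the arrays, whereas 4 of 6 macrophage and monocyte markers, 3 of 4 erythroid, 2 of 4 B cell, 2 of 4 neutrophil, 1 of 4 NK cell and both CD8 T cell markers did so on at least 1. Cd8a was 2.35 higher in Tregs in WT samples (limma adjusted p = 8.83e-09) and 1.82 higher in KI samples, with no overlap, while the other CD8 marker, Cd8b1, did not pass in either genotype. Cd4 was lower in Tregs (-0.71 in WT and -0.49 in KI). C1qa of macrophages (1.74 and 2.13), Cd79b of B cells (1.15 and 1.38) and the NK cell gene Eomes (0.92 and 0.83) passed as higher in Tregs in both genotypes. Other markers of the same cells did not all follow. Ms4a1 of B cells (-0.30 and 0.27) and Lyz2 of macrophages (0.35 and 1.28) passed in neither genotype. Cd68 of macrophages (1.12 and 1.24) passed in KI samples alone. Of the 4 NK cell markers only Eomes reached the filter. The part of these other cells in the carrier differences between the cell types was not tested. In such bulk samples, fewer cells of a type and less RNA per cell cannot be told apart. The number in the sample title separates most WT arrays (4 to 9) from most KI arrays (13 to 23), and the arrays numbered 24 to 27 hold 1 sample of each group. What the number stands for is not given.

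Most of the kept carriers were expressed throughout. On all 16 arrays 106 of the 132 exceeded 5, and 123 had a mean above 5. Those above 5 in 1 cell type alone were few. Slc22a2 and Slc22a15 exceeded 5 on all 8 Treg arrays and on no Tconv array. Slc7a10 and Slc9b2 did so on 7 Treg arrays and Slc43a1 on 5, again on no Tconv array. Slc16a5 was the reverse, above 5 on all 8 Tconv arrays and on no Treg array. At the edge of the filter, Slc29a3, Slc2a8 and Slc43a1 exceeded 5 on 5 arrays and were kept, with Slc2a8 running from 4.56 to 5.31. Slc12a5 and Slc4a1 exceeded it on 3 and were left out, with Slc12a5 running from 3.48 to 5.31.

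The first comparison asked which carriers distinguish WT Tregs from WT Tconv. Of the 132, 51 passed (limma, adjusted p under 0.05 over all genes tested), against 34.6% of all genes. Of these 23 were higher in Tregs (background 16.7%) and 28 lower (background 17.9%). The median difference was -0.07 over the carriers and -0.03 over all genes. The arrays of both cell types did not overlap for 52 carriers (background 37.2%), and 64 had an unadjusted p under 0.05 (background 43.9%). By these counts carriers differed about as often as genes at large. The counts hold 5 higher carriers kept through Treg arrays alone and 1 lower carrier kept through Tconv arrays alone, whose direction the filter set. Among carriers that passed, the largest rises were in the organic cation carrier gene Slc22a2, the neutral amino acid exchanger gene Slc7a10, Slc22a15, Slc35d1 and the sodium/proton exchanger gene Slc9b2. The largest falls were in Slc16a5, the phosphate importer gene Slc20a1, the zinc exporter gene Slc30a4 and the potassium/chloride cotransporter gene Slc12a7.

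**Figure D1:**
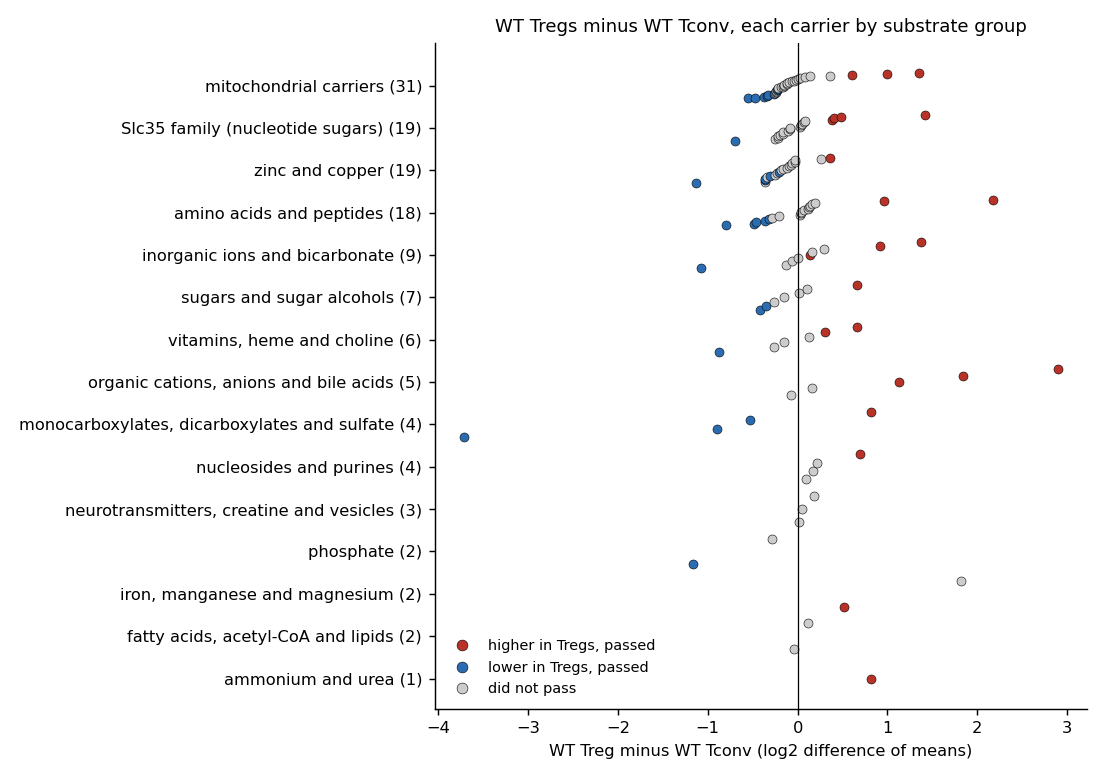
Each point is 1 of the 132 carriers, placed by its log2 difference between the means of 4 WT Treg and 4 WT Tconv arrays (horizontal axis) and by substrate group (vertical axis, number of members in brackets). Red and blue points passed with higher and lower levels in Tregs, and grey points did not pass; 3 of 5 organic cation carriers are red, and 17 of 19 zinc and copper carriers lie to the left of 0.

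Of 28 genes for carriers of organic cations, anions and bile acids on the array, 5 were kept. Of these 5, 3 passed as higher in WT Tregs (background 16.7%) and none as lower (background 17.9%). Slc22a2 and Slc22a15 were kept through the Treg arrays alone, so for these the filter set the direction. Slc22a2, which encodes a polyspecific organic cation carrier best known from the kidney, read 6.36, 6.53, 5.96 and 6.29 on the WT Treg arrays. It read 3.32, 3.49, 3.40 and 3.34 on the WT Tconv arrays. The difference was 2.90 (SE 0.181, limma adjusted p = 4.7e-10), or 7.45-fold, and no arrays overlapped. Its relative Slc22a15 read 6.27, 6.58, 6.34 and 6.24 in WT Tregs and 4.31, 4.67, 4.55 and 4.54 in WT Tconv. Here too the 4 Tregs lay above every Tconv array, by 1.84 on average (SE 0.134, limma adjusted p = 3.82e-09). Slc22a5, the sodium-dependent carnitine importer, rose by 1.13 from a level that was well above background in both cell types (9.05 ± 0.19 against 7.92 ± 0.17, SD, n = 4). Carnitine is the carrier on which long-chain fatty acids enter mitochondria. Slc10a3 and Slc10a7, of the bile acid carrier family, differed by 0.16 and -0.08 and did not pass, and Slc10a7 was named after its values were seen.

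Among 18 amino acid and peptide carriers, 2 were higher (background 16.7%) and 5 lower (background 17.9%) in WT Tregs. Slc7a10 encodes the light chain of an exchanger for small neutral amino acids such as serine and glycine. It read 5.45, 5.89, 5.96 and 5.26 in WT Tregs and 3.44, 3.45, 3.55 and 3.40 in WT Tconv. All 4 Tconv values are in the range of background, so the 4.53-fold difference (2.18, SE 0.200, limma adjusted p = 8.76e-08) understates the change. Slc7a10 was kept through Treg arrays alone, so the filter set its direction. The 5 lower members were Slc36a1 (-0.80), a proton-coupled carrier of lysosomes, Slc66a2 (-0.49), the cationic amino acid importer Slc7a1 (-0.46) and the glutamine carriers Slc38a2 (-0.36) and Slc38a1 (-0.32). Slc38a2 was named after its values were seen. The Slc38a1 call rests on the choice of probe set, because the most variable probe set gave an adjusted p of 0.221, the highest of its 26 alternatives (lowest 6e-05). The heavy chain Slc3a2, with which Slc7a10 and other light chains pair, differed by 0.03. The large neutral amino acid light chain Slc7a5 differed by 0.07 and the glutamine carrier Slc1a5 by 0.14. None of these 3, named for their known role after their values were seen, passed.

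The genes that respond to amino acid supply also moved in both directions. Of 17 tested genes of mTORC1 and amino acid sensing, 3 were higher (background 16.7%) and 2 lower (background 17.9%) in WT Tregs (median -0.01). Rragd, a Rag GTPase that recruits mTORC1 to lysosomes, was 2.49 higher. Eif4ebp1, an mTORC1 substrate that restrains translation, was 0.81 higher, and Lamtor4, a subunit of the lysosomal Ragulator complex, 0.67 higher. Of 10 tested targets of the amino acid shortage factor ATF4, 2 were higher and 2 lower (median 0.01), with the same background. Asns, which makes asparagine, was 1.02 higher, while the pseudokinase gene Trib3 was 0.86 lower (-0.86) and the glycyl-tRNA synthetase gene Gars -0.36.

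Carriers of inorganic ions gave 3 rises (background 16.7%) and 1 fall (background 17.9%) among 9 members. Slc9b2, a sodium/proton exchanger of the plasma membrane and organelles, read 5.03, 5.30, 5.14 and 4.80 in WT Tregs and 3.75, 3.42, 3.65 and 3.97 in WT Tconv. The groups were separate, with a difference of 1.37 (SE 0.164, limma adjusted p = 2.64e-06). Slc9b2 was kept through Treg arrays alone, so the filter set its direction. A pair of chloride cotransporters moved in opposite directions. Slc12a2, which imports sodium, potassium and chloride together, was 0.91 higher in WT Tregs (8.08 ± 0.29 against 7.17 ± 0.24, SD, n = 4). Slc12a7, which exports potassium with chloride, read 8.39, 8.10, 8.14 and 8.31 in WT Tregs and 9.27, 9.50, 9.31 and 9.17 in WT Tconv. It was lower by 1.07 on average (difference -1.07, SE 0.1003, limma adjusted p = 1.1e-07), with no overlap. The scaffold gene Slc9a3r1 passed at 0.14, and this call was lost in 13 of 26 alternative analyses.

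Of 6 tested partner proteins and pump subunits, 4 were lower (background 17.9%) and 1 higher (background 16.7%) in WT Tregs. The sodium pump subunit genes Atp1b1 (-1.31) and Atp1b3 (-0.24), the volume-regulated anion channel gene Lrrc8a (-0.71) and Emb (-1.05) were lower. Emb encodes embigin, an accessory protein of monocarboxylate carriers. Bsg, which encodes the related accessory protein basigin, was 0.38 higher and was named after its values were seen.

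Carriers of monocarboxylates, sulfate and phosphate held the largest fall. Slc16a5, a member of the monocarboxylate carrier family, read 7.59, 7.52, 7.64 and 7.41 in WT Tconv and 3.82, 3.76, 3.41 and 4.33 in WT Tregs. It was thus clearly expressed in Tconv and in the range of background in Tregs. The difference was -3.71 (SE 0.185, limma adjusted p = 2.15e-11), a 13.1-fold lower level that is understated for the same reason. Slc16a5 was kept through Tconv arrays alone, so the filter set its direction. Slc16a6, a relative known to carry ketone bodies, was higher in WT Tregs by 0.82. The anion exchanger genes Slc26a11 (-0.90) and Slc26a6 (-0.53) were lower. Slc20a1, a sodium-dependent importer of phosphate, read 9.27, 9.14, 9.50 and 9.37 in WT Tregs and 10.48, 10.51, 10.64 and 10.32 in WT Tconv. That difference of -1.17 (SE 0.0787, limma adjusted p = 1.34e-09) separated all arrays. The second phosphate carrier of the set, Slc20a2, differed by -0.29 and did not pass.

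**Figure D2:**
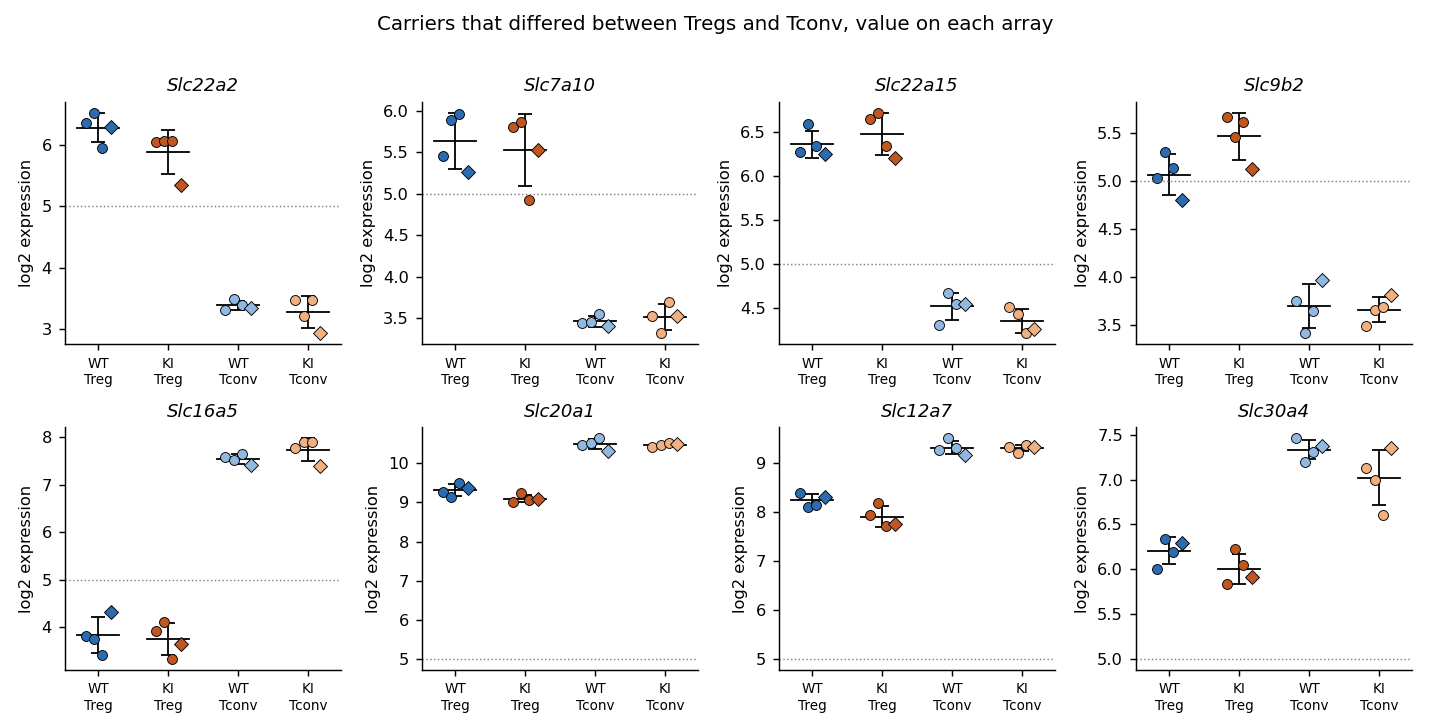
Log2 expression of 8 carriers on each array (vertical axis, own scale per panel) in the 4 groups (horizontal axis); horizontal lines and bars are the mean and SD of 4 arrays, diamonds are the arrays numbered 24 to 27 and the dotted line is the filter at 5. Slc22a2, Slc7a10, Slc22a15 and Slc9b2 are higher on all Treg arrays and Slc16a5, Slc20a1, Slc12a7 and Slc30a4 on all Tconv arrays, in both genotypes.

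Zinc and copper carriers leaned lower in WT Tregs, with a median of -0.19 and 2 of 19 differences above 0, where 45.8% of all genes were above 0. Of these 5 passed as lower (background 17.9%) and 1 as higher (background 16.7%). Slc30a4, which loads zinc into vesicles, read 6.00, 6.34, 6.19 and 6.29 in WT Tregs and 7.46, 7.20, 7.31 and 7.37 in WT Tconv. The groups were separate (difference -1.13, SE 0.134, limma adjusted p = 2.39e-06). Slc30a5 (-0.36) and Slc30a9 (-0.36) were also lower, whereas the zinc importer gene Slc39a1 was 0.36 higher. Most other kept members of the importer family Slc39 lay below 0, such as Slc39a14 (-0.34) and Slc39a7 (-0.31). Apart from Slc39a1, only Slc39a13 (0.27) lay above 0. Slc39a14, Slc39a7 and Slc39a13 were named after their values were seen. Of the 6 tested genes of metal handling, which include the iron storage gene Fth1 (-0.08) and the zinc-sensing factor gene Mtf1 (-0.17), none passed and none had an unadjusted p under 0.05. Among all genes, 34.6% passed and 43.9% had such a p. The magnesium carrier gene Slc41a1 was higher in WT Tregs by 0.52.

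Mitochondrial carriers were the largest group, with 31 members. Of these 3 were higher (background 16.7%) and 9 lower (background 17.9%) in WT Tregs. Together 38.7% of the group passed, against 34.6% of all genes. Below 0 were 23 differences, and 25.8% were above 0, against 45.8% of all genes. The median was -0.15, against -0.03 over all genes. The falls were small. The ornithine carrier gene Slc25a15 (-0.55) and the mitochondrial iron importer gene Slc25a37 (-0.47) fell most. The other detected probe set of Slc25a37 gave 0.06. The 3 rises were larger. Slc25a53, an orphan of the family, was 1.36 higher, Slc25a33, a pyrimidine nucleotide carrier, 0.99 higher, and the ATP-magnesium/phosphate carrier gene Slc25a24 0.60 higher. The other detected probe set of Slc25a53 gave a difference of -0.14, so its rise depends on the probe set.

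The 19 members of the Slc35 family gave 4 rises (background 16.7%) and 1 fall (background 17.9%). Slc35d1, which brings UDP-glucuronic acid and UDP-N-acetylgalactosamine into the endoplasmic reticulum, was 1.42 higher in WT Tregs (SE 0.179, limma adjusted p = 4.87e-06). Slc35f2 (0.49) and Slc35g1 (0.39) were higher and Slc35e2 (-0.70) lower, and the Slc35f2 call was lost without WT Treg replicate 3 (adjusted p 0.0504). These 3 have no nucleotide sugar substrate that is generally agreed. Of the 13 tested enzymes that make sugar nucleotides, 3 were higher and 2 lower, with the same background. Pgm3, which makes a precursor of UDP-N-acetylglucosamine, was 1.01 lower (-1.01). Ugp2, which makes UDP-glucose, was 0.21 higher and Papss1, which makes the sulfate donor, 0.27 higher.

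The remaining groups were small. The equilibrative nucleoside carrier gene Slc29a1 was 0.70 higher in WT Tregs. The vitamin and heme group was divided, with the lysosomal carrier gene Slc46a3 at 0.66 and Slc49a4 at -0.88. Of the families grouped with sugar carriers, Slc45a4 was 0.67 higher, while the glucose 6-phosphate carrier gene Slc37a4 (-0.42) and Slc37a1 (-0.35) were lower. The Slc37a1 call was lost in 14 of 26 alternative analyses, and the Slc37a4 call without WT Treg replicate 1 or 3 or WT Tconv replicate 1 (adjusted p up to 0.0735). Both fatty acid and acetyl-CoA carriers of the set, Slc27a4 (-0.04) and Slc33a1 (0.12), did not pass.

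A pair of carriers are known from other blood cells. Slc40a1 encodes ferroportin, the iron exporter, which is abundant in macrophages that recycle red cells. It read 7.30, 7.61, 7.53 and 8.99 in WT Tregs, 6.85, 5.30, 5.25 and 6.78 in WT Tconv, 7.47, 9.05, 3.15 and 8.22 in KI Tregs, and 6.06, 3.08, 2.97 and 6.41 in KI Tconv. The KI Treg arrays thus spanned almost the whole range of the gene, and neither its WT difference of 1.82 (limma adjusted p = 0.177) nor its KI difference of 2.34 (limma adjusted p = 0.0720) passed. The complement gene C1qa, a macrophage marker, read 5.33, 5.61, 5.43 and 7.15 in WT Tregs, 4.72, 3.32, 3.86 and 4.66 in WT Tconv, 5.73, 7.60, 3.34 and 5.98 in KI Tregs, and 3.83, 2.97, 2.95 and 4.39 in KI Tconv. The same KI Treg array was lowest and the same was highest for both genes. The mean of 6 macrophage and monocyte markers was 4.519 to 6.402 on WT Treg arrays, 4.097 to 4.870 on WT Tconv, 3.872 to 6.504 on KI Treg and 3.814 to 4.741 on KI Tconv. Their part in the Slc40a1 values was not tested.

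Slc14a1, the urea carrier of red cells, was 0.82 higher in WT Tregs (limma adjusted p = 0.0127). Its WT Treg arrays read 7.31, 8.14, 7.26 and 7.54 and its WT Tconv arrays 7.06, 6.69, 6.87 and 6.38, with no overlap. Without WT Treg replicate 2, the highest array, the adjusted p was 0.0552 (range over its 26 alternatives 0.00374 to 0.0552). The mean of 4 erythroid markers was 4.87 to 7.18 on WT Treg arrays and 4.71 to 6.57 on WT Tconv arrays, and the hemoglobin gene Hba-a1 ranged from 8.20 to 12.52 over the 16 arrays. On WT Treg replicate 2, the highest WT Treg array for Slc14a1 (8.14), Hba-a1 read 11.96. Hba-a1 was highest on WT Tconv replicate 1 (12.52), where Slc14a1 read 7.06. It was next highest on WT Treg replicate 3 (12.49), the lowest WT Treg array for Slc14a1 (7.26). The part of red cells in the Slc14a1 values was not tested.

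The second comparison asked whether the carriers separated Tregs from Tconv in the same way in KI mice. Of the 132, 61 passed, against 41.1% of all genes, with 31 higher in Tregs (background 21.2%) and 30 lower (background 19.9%). The median was -0.03 over the carriers and -0.02 over all genes. Arrays did not overlap for 49 carriers (background 34.7%), and 66 had an unadjusted p under 0.05 (background 48.5%). The KI arrays gave largely the pattern of the WT arrays. In both genotypes 43 passed (background 28.4%), 21 higher (background 14.6%) and 22 lower (background 13.8%), and none in opposite directions. These are 84.3% of the WT calls and 70.5% of the KI calls, against 82.0% and 69.1% over all genes. The KI counts and those in both genotypes also hold the 5 higher carriers and 1 lower carrier whose direction the filter set. Across the 132 carriers, which are not independent replicates, the differences of both genotypes correlated at 0.967, and at 0.936 across all genes tested. The correlation over carriers includes the 5 higher and 1 lower carriers whose direction the filter set, and it was not computed without them.

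**Figure D3:**
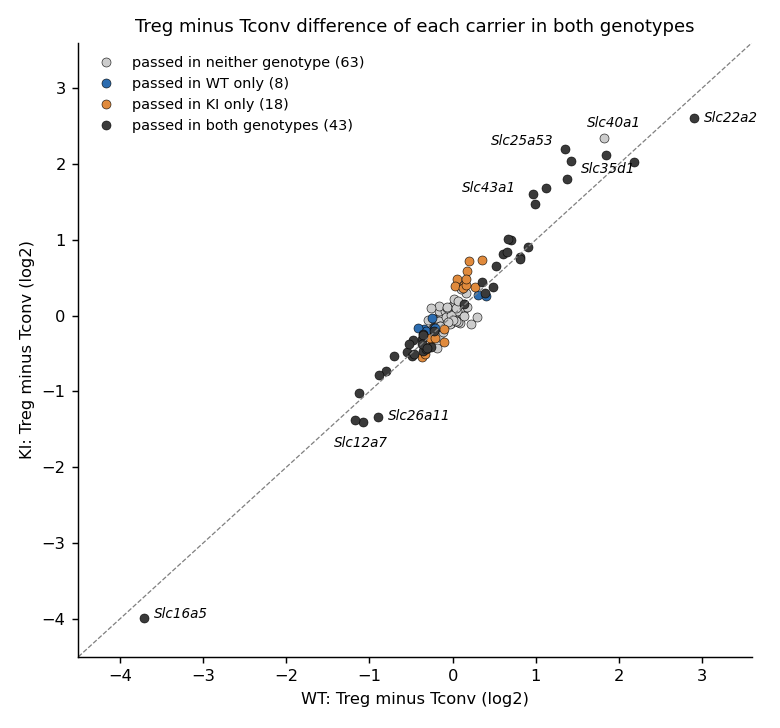
Each point is 1 of 132 carriers, with its Treg minus Tconv log2 difference in WT (horizontal axis) and in KI samples (vertical axis), each from means of 4 arrays; the dashed line marks equal differences and colours show the genotypes in which the carrier passed. Slc16a5 lies at the lower left, at -3.71 and -3.99, and Slc35d1, Slc25a53 and Slc43a1 lie above the line.

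Slc16a5 was again the largest fall (-3.99), at 3.93, 4.12, 3.34 and 3.64 in KI Tregs and 7.77, 7.90, 7.90 and 7.40 in KI Tconv. Slc22a2 was again the largest rise (2.61), at 6.05, 6.07, 6.07 and 5.35 in KI Tregs and 3.48, 3.22, 3.48 and 2.94 in KI Tconv. For both genes the cell types stayed apart on every array. Slc7a10 (2.02), Slc22a15 (2.12), Slc9b2 (1.80), Slc20a1 (-1.37), Slc12a7 (-1.41) and Slc30a4 (-1.02) also kept their direction and passed. Slc16a5 was kept through Tconv arrays alone, and Slc22a2, Slc7a10, Slc22a15 and Slc9b2 through Treg arrays alone. For these the filter set the direction in KI samples too. Slc20a1 read 9.01, 9.23, 9.06 and 9.10 in KI Tregs and 10.41, 10.48, 10.51 and 10.49 in KI Tconv. Slc12a7 read 7.93, 8.19, 7.72 and 7.75 in KI Tregs and 9.32, 9.21, 9.37 and 9.32 in KI Tconv. These phosphate and potassium/chloride carriers were separate on all arrays in KI as in WT cells. The sulfate carrier gene Slc26a11 read 5.78, 5.88, 5.79 and 5.66 in KI Tregs and 7.18, 7.25, 7.05 and 6.96 in KI Tconv. Its difference was -1.33 in KI and -0.90 in WT samples, and its interaction did not pass (limma adjusted p = 0.223). Differences of at least 1 passed for 11 carriers in WT (background 6.36%) and 15 in KI samples (background 8.15%). Both counts hold Slc16a5, Slc22a2, Slc7a10, Slc22a15 and Slc9b2, and the KI count also Slc43a1, for which the filter set the direction. Of the 43 that passed in both genotypes, 25 (58.1%) had the larger difference in KI cells, against 62.7% over all genes that passed in both. By substrate, organic cation carriers stood at 3 of 5 higher in both genotypes, and monocarboxylate and sulfate carriers at 1 higher and 3 lower of 4. Zinc and copper carriers stood at 1 higher and 4 lower in both of 19, and mitochondrial carriers at 3 higher and 5 lower in both of 31. Over all genes, 14.6% were higher and 13.8% lower in both genotypes. In the KI comparison by itself, 6 mitochondrial carriers were higher and 6 lower, where WT samples gave 3 and 9, and 2 zinc and copper carriers were higher and 7 lower, where WT samples gave 1 and 5. Over all genes, 21.2% were higher and 19.9% lower in KI samples, and 16.7% and 17.9% in WT samples.

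A further 26 carriers passed in 1 genotype alone, and those given here were named after their values were seen. The 8 that passed in WT samples alone included the reduced folate carrier gene Slc19a1 (0.31 in WT, a call lost in 8 of 26 alternative analyses, and 0.28 in KI) and the mitochondrial NAD carrier gene Slc25a51 (-0.23 and -0.17). The 18 that passed in KI samples alone included the sialic acid exporter gene Slc17a5 (0.05 in WT, 0.49 in KI), the nucleoside importer gene Slc28a2 (0.18 and 0.59) and the mitochondrial carnitine/acylcarnitine carrier gene Slc25a20 (0.03 and 0.39). They also included the lysosomal arginine sensor gene Slc38a9 (-0.21 and -0.30) and the branched-chain amino acid carrier gene Slc43a2 (0.19 and 0.72). Passing in 1 genotype and missing the threshold in the other is no test of a difference between genotypes, and that test is the interaction given last.

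The third comparison asked which carriers differ between KI and WT Tregs. Of the 132, 5 passed, against 2.84% of all genes, and all 5 were higher in KI Tregs (background 1.99% higher and 0.848% lower). The median was 0.05 over the carriers and 0.04 over all genes. Arrays did not overlap for 13 carriers (background 8.12%), and 27 had an unadjusted p under 0.05 (background 16.5%). The share that passed was thus close to that of all genes. The 5 were Slc35d1, the branched-chain amino acid carrier gene Slc43a1, the carnitine importer gene Slc22a5, the mitochondrial pyrimidine nucleotide carrier gene Slc25a33 and the lysosomal sialic acid exporter gene Slc17a5. They belong to different families and carry different substrates. Slc43a1 was kept through its KI Treg arrays, so for this gene the filter set the direction.

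Their promoters are shown because these are the 5 carriers that were higher in KI Tregs. Each sequence is the 250 bases before the RefSeq transcription start in GRCm38.p6, read 5′ to 3′ on the strand of the gene, with the E-box CACGTG in capitals where it occurs.

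Slc35d1, chr4:103215177-103215426 (minus strand): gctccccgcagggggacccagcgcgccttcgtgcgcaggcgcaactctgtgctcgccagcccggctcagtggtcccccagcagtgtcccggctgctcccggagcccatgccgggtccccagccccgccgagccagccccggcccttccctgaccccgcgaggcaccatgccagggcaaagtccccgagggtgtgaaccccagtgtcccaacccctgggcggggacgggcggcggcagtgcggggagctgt
Slc43a1, chr2:84840073-84840322 (plus strand): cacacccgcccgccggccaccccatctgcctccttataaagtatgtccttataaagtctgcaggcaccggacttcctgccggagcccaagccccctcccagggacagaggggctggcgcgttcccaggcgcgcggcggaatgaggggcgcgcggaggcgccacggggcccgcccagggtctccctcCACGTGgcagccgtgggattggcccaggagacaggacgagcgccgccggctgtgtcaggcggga
Slc22a5, chr11:53891704-53891953 (minus strand): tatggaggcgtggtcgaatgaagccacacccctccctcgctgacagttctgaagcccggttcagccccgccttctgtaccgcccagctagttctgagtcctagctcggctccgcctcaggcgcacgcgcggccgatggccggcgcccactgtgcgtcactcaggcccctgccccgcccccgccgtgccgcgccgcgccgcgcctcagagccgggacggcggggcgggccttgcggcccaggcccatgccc
Slc25a33, chr4:149774268-149774517 (minus strand): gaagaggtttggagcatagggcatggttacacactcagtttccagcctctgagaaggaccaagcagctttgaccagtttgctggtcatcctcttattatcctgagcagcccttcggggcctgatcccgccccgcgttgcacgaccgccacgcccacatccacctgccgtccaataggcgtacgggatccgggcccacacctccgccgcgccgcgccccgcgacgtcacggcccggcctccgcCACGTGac
Slc17a5, chr9:78588046-78588295 (minus strand): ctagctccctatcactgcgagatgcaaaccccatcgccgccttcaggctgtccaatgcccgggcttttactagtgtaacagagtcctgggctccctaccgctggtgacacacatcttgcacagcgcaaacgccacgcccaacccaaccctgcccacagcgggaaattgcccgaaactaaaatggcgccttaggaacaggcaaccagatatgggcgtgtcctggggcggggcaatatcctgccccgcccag

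All 5 windows were rich in G and C, from 59.6% in Slc17a5 to 75.2% in Slc35d1. Motifs were searched on both strands. The forkhead motif TGTTTAC, the AP-1 motif TGANTCA and the amino acid response element TGATGNAA were in none of the 5. They were in 3.17%, 6.75% and 3.45% of 32851 RefSeq promoter windows of this length. The E-box CACGTG, which is its own reverse complement, was in the windows of Slc43a1 (64 bases before the start) and Slc25a33 (8 bases before it). It was in 6.02% of all windows and in 20 of the 137 windows of the 102 carriers with an entry (14.6%). In the same 137 windows the forkhead motif was in 0, the AP-1 motif in 5 (3.65%) and the amino acid response element in 3 (2.19%). A match is a description of the letters and not of binding.

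Slc35d1 read 8.97, 9.00, 9.09 and 8.58 in KI Tregs and 7.95, 7.98, 7.90 and 7.63 in WT Tregs. Every KI array lay above every WT array, by 1.05 on average (SE 0.179, limma adjusted p = 0.00311), or 2.07-fold. The lowest array of each group was the one from the range 24 to 27, and the difference between these was 0.96. The other detected probe set of the gene gave 0.82. Tregs exceeded Tconv for this gene by 1.42 in WT and 2.04 in KI samples.

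Slc43a1, a facilitated carrier of leucine and other branched-chain amino acids, read 6.20, 5.55, 5.65 and 6.26 in KI Tregs and 4.82, 4.85, 5.18 and 4.88 in WT Tregs. The groups were separate, by 0.98 (SE 0.191, limma adjusted p = 0.00821), and by 1.38 within arrays 24 to 27. The gene crossed from below 5 on 3 of 4 WT arrays to above it on all KI arrays. It was kept through these KI Treg arrays, so the filter set this direction. Slc22a5 read 9.31, 9.63, 9.70 and 9.55 in KI Tregs and 8.90, 8.96, 9.00 and 9.32 in WT Tregs. The highest WT array passed the lowest KI array, so the groups met at 9.31 to 9.32. The difference was 0.50 (SE 0.103, limma adjusted p = 0.0115), and 0.23 within arrays 24 to 27.

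Slc25a33 read 7.40, 7.40, 7.00 and 7.32 in KI Tregs and 6.68, 6.83, 6.70 and 6.89 in WT Tregs. These did not overlap (0.50, SE 0.124, limma adjusted p = 0.0350). Slc17a5, whose protein releases sialic acid from lysosomes, read 7.31, 7.41, 7.26 and 7.36 in KI Tregs and 7.00, 6.89, 7.01 and 7.03 in WT Tregs. The arrays were again separate, with a small difference of 0.35 (SE 0.0827, limma adjusted p = 0.0281). Within arrays 24 to 27 both were also higher in KI Tregs, by 0.43 and 0.33.

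**Figure D4:**
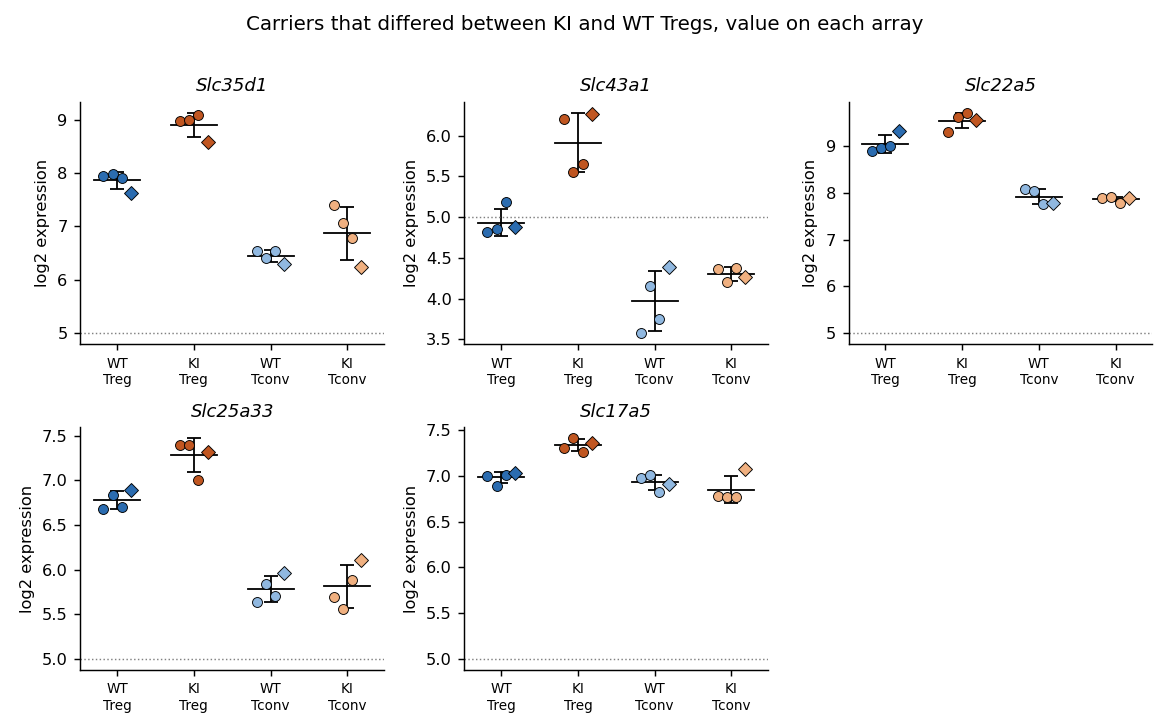
Log2 expression of the 5 carriers that differed between KI and WT Tregs on each array (vertical axis, own scale per panel) in the 4 groups (horizontal axis); horizontal lines and bars are the mean and SD of 4 arrays, diamonds are the arrays numbered 24 to 27 and the dotted line is the filter at 5. KI Treg arrays lie above WT Treg arrays in all panels, except that 1 WT array of Slc22a5 (9.32) lies above the lowest KI array (9.31).

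These calls depend on how the array numbers are treated. With the 3 number ranges as a block, only arrays 24 to 27 hold both genotypes, and none of the 5 passed (differences 0.75, 0.95, 0.44, 0.53 and 0.46, adjusted p 0.0754, 0.251, 0.436, 0.335 and 0.150, in the order above). The calls of Slc25a33 and Slc17a5 were also lost with no filter on low values. They were lost as well without any 1 of the 4 WT Treg arrays or without KI Treg replicate 1 or 2. The call of Slc22a5 was lost without WT Treg replicate 1 (adjusted p 0.0547).

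No carrier passed as lower in KI Tregs. The arrays did not overlap for Slc38a1 (-0.19), Slc30a7 (-0.31), Slc26a11 (-0.26), Slc25a30 (-0.25) and Slc29a3 (-0.25), none of which passed. Among carriers that did not pass, the separate KI arrays lay higher for Slc25a53 (0.65, limma adjusted p = 0.220), Slc28a2 (0.44, limma adjusted p = 0.168), Slc35b1 (0.31) and Slc43a2 (0.30). Slc35b1 imports ATP into the endoplasmic reticulum. Among 31 mitochondrial carriers 25 differences were above 0 (median 0.10) and 1 passed, where 60.3% of all genes were above 0 and 2.84% passed. The amino acid chains Slc3a2 and Slc7a5 differed by 0.22 and 0.24 and did not pass.

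The other genes of the pathways gave few calls between KI and WT Tregs, where 2.84% of all genes passed. Of the 10 ATF4 targets and the 13 sugar nucleotide enzymes none passed. At an unadjusted p under 0.05 there were 2 and 0 (background 16.5%). Of the 17 mTORC1 genes 1 passed, Sesn3 (-0.45, limma adjusted p = 0.0216), whose protein restrains mTORC1. Of the 6 partner genes Emb passed, lower by 0.52 on average (-0.52, limma adjusted p = 0.00079). Of the 6 genes of metal handling the transferrin receptor gene Tfrc passed (0.35, limma adjusted p = 0.0304). With the 3 number ranges as a block none of Sesn3, Emb and Tfrc passed. The Tfrc call was also lost with the mean of its probe sets and without WT Treg replicate 1, 2 or 3 or KI Treg replicate 1, 2 or 3. The Sesn3 call was also lost without WT Treg replicate 1, 3 or 4 or KI Treg replicate 1 or 2.

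The fourth comparison set KI against WT Tconv. None of the 132 carriers passed (limma), against 0.135% of all genes, and 5 had an unadjusted p under 0.05 (background 5.90%). Arrays did not overlap for 3 carriers (background 3.74%). The median was -0.01 over the carriers and 0.01 over all genes. Of the 5 carriers higher in KI Tregs, Slc35d1 differed by 0.43 in Tconv (unadjusted p 0.0278 in limma), with KI arrays at 7.40, 7.07, 6.79 and 6.23 and WT arrays at 6.53, 6.40, 6.54 and 6.30. The direction turned in the gene's other detected probe set (-0.05) and within arrays 24 to 27 (-0.08). The KI Tconv arrays of this gene were spread more widely than any other group (SD 0.50). Slc43a1 differed by 0.34, Slc22a5 by -0.05, Slc25a33 by 0.03 and Slc17a5 by -0.08.

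The interaction tested whether the genotype difference in Tregs exceeded or fell short of the genotype difference in Tconv, as the first minus the second. None of the 132 passed (limma), against 0.786% of all genes, and 10 had an unadjusted p under 0.05 (background 8.27%). The median was 0.06 over the carriers and 0.02 over all genes. Slc22a5 had the smallest p, with a difference of 0.56 (SE 0.146, unadjusted p = 0.0013, limma adjusted p = 0.109). It was followed by Slc17a5 at 0.44 (SE 0.117, limma adjusted p = 0.127) and Slc43a2 at 0.53 (SE 0.142, limma adjusted p = 0.129). Slc35d1 gave 0.62 (SE 0.253, limma adjusted p = 0.477), Slc43a1 0.64 (SE 0.270, limma adjusted p = 0.501) and Slc25a33 0.48 (SE 0.175, limma adjusted p = 0.381). For these 5 carriers the rise in KI Tregs was therefore not shown to differ from the difference in KI Tconv. Among the genes of the pathway lists, Emb alone passed in the interaction (-0.48, SE 0.106, limma adjusted p = 0.0366).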

How the data were processed

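Expression was measured on 16 Affymetrix arrays, 4 for each of 4 groups. The deposited values are log2 expression per probe set, which the authors made with RMA in Partek 6.5, per the submitters' processing notes. RMA corrects background, gives all arrays 1 distribution and combines the probes into a value per set, so differences between arrays in total RNA are removed and low values are compressed. Array medians ran from 3.69 to 3.76. The number of arrays limits the precision.

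Of 45141 probe sets, 104 were controls, 28898 had 1 gene, 551 several and 15588 none listed. Genes were matched by Entrez identifier (28689) or symbol (152), and 57 kept the array's symbol. Of a gene's probe sets, that with the highest 16-array mean was used, and 62 of the 132 carriers had only 1 probe set. Genes above 5 (log2) on at least 4 arrays were tested with limma 3.58.1 (R 4.3.3; tables with pandas 2.3.3 in Python 3.11.15). The fit had 1 mean per group over all 16 arrays and moderated variances with a trend. Two-sided p-values were adjusted over 8139 genes (Benjamini-Hochberg). The code was tested on simulated data.

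Members, lists and substrate groups were chosen with earlier results of these data known. Named were up to 10 rises and 10 falls per comparison among carriers that passed, up to 4 carriers per substrate group by p between WT Tregs and WT Tconv and 2 between KI and WT Tregs, up to 3 and 2 genes per pathway list in the same way, and Slc35d1. Members named outside this rule were chosen after their values were seen. Alternatives were other filters, probe set rules, variance models, array weights, centring, number ranges as a block and leaving out arrays.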

Additional observations from a re-analysis of the deposited data

Results flagged for a closer look

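Among 236 groups of 4 arrays of the named carriers, 10 held an array far from the other 3 by Dixon's test. About 1 in 20 groups does so by chance. In KI Tconv replicate 4, Slc17a5 (7.07, others 6.77 to 6.78) and Slc30a1 (9.28, others 8.40 to 8.53) were high and Slc29a1 (4.86, others 5.54 to 5.67) was low. In KI Treg replicate 4, Slc22a2 (5.35, others 6.05 to 6.07) and Slc35f2 (5.19, others 5.65) were low. In WT Treg replicate 4, Slc20a2 was low (4.65, others 4.81 to 4.83). These 3 replicates belong to the arrays numbered 24 to 27. The other cases were Slc23a2, low in KI Treg replicate 3 (6.59, others 7.20 to 7.30), Slc27a4, low in KI Tconv replicate 1 (4.61, others 5.01 to 5.03), Slc35g1, low in WT Tconv replicate 3 (8.08, others 8.23 to 8.25), and Slc43a1, high in WT Treg replicate 3 (5.18, others 4.82 to 4.88).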

How the results depend on the processing

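The counts of carriers that differed between Tregs and Tconv stayed within 1.5 times in all alternatives tested. They were 41 to 62 in WT (51 as reported) and 50 to 74 in KI samples (61 as reported). The number of carriers tested was not the same in all of these. With no filter on low values, 58 in WT and 74 in KI samples passed of 324 carriers, where 132 were tested as reported. Of the reported calls, 41 in WT and 53 in KI samples were among them. The count between KI and WT Tregs (5) did not stay within 1.5 times. It was 3 with no filter on low values, 34 with array quality weights (27 higher and 7 lower, with 1715 of all genes), 8 without arrays 24 to 27 and 0 with the 3 number ranges as a block (29 of all genes, against 231). Leaving out 1 array gave 2 to 9. It was 2 without WT Treg replicate 1, 3 without WT Treg replicate 2, 3 or 4 or without KI Treg replicate 1, and 9 without KI Treg replicate 4. In Tconv the count (0) was 4 with array weights and 1 without arrays 24 to 27 (Slc35d1), and 0 to 1 when leaving out 1 array. The interaction (0) gave 1 with the most variable probe set (Slc35d1), 2 with the mean of probe sets (Slc22a5 and Slc35d1), 7 with array weights and 2 without arrays 24 to 27 (Slc22a5 and Slc43a2). Leaving out 1 array gave 0 to 2, with 1 without WT Treg replicate 4 and 2 without KI Tconv replicate 4. The cause of these shifts was not tested. Of 64 calls of named carriers, 52 held under every alternative with a test and none changed direction. No paired analysis was possible because the groups share no replicate number in the labels. Arrays 24 to 27 alone hold 1 array a group and gave values without a test.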
